A study of Mus musculus with 6 samples.

Results

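Eng, Cd34, Flt1 and Cdh5 encode surface proteins best known from blood vessels, and they were taken by their exact symbols among the rows that carry 1 gene symbol in the array's annotation. All 4 were found, each with 1 row, among 9490 genes with a row of their own. They were selected on their log2 values in these same arrays, since earlier results showed that their directions differed between the 2 kinds of cells compared. Their differences are therefore given as a description, with no test. Expression was measured on 6 single-colour oligonucleotide arrays of cultured prostate cancer stem-like cells from TRAMP mice, a transgenic strain in which the probasin promoter drives viral T antigens in prostate epithelium. The 3 TPIN samples came from prostates of mice aged 10 to 11 weeks, with intraepithelial neoplasia, and the 3 TNE samples from mice with neuroendocrine tumours, whose age the labels do not give. All cells carried the same transgenic model and were kept in serum-free medium that contained EGF and FGF2. One label field speaks of intraepithelial neoplasia even for the TNE samples, so the groups rest on the titles and the cell type labels. Whether the samples within a group stem from different mice, different cultures or pooled animals is not stated, and no untransformed prostate culture is part of the comparison.

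Endothelial cells line blood vessels and read growth factor, matrix and contact signals through these proteins. Endoglin, the product of Eng, is a co-receptor that presents ligands of the TGF-beta and BMP family to signalling receptors, and it is also a surface marker of mesenchymal stromal cells. FLT1 is a receptor tyrosine kinase that binds VEGF-A, VEGF-B and placental growth factor and, in its secreted form, traps them. CD34 is a sialomucin of endothelial cells, blood progenitors and some stromal fibroblasts. VE-cadherin, the product of Cdh5, joins neighbouring endothelial cells at adherens junctions through catenins. Eng and Cd34 are therefore not marks of endothelium alone, and a bulk culture cannot tell fewer cells of a type from less RNA per cell.

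Cdh5 had no promoter window in the reference used, so windows are shown only for the 3 genes that were lower in TNE. RefSeq (GRCm38.p6) gave 1 window for each, read 5′ to 3′ along the gene over the 250 bases before its start. The windows are chr2:32646345-32646594 on the + strand for Eng, chr1:194938571-194938820 on the + strand for Cd34 and chr5:147726012-147726261 on the - strand for Flt1. Capitals mark AGGAAG and, for the other strand, CTTCCT, which hold the GGAA core of the ETS family of transcription factors. GGAA or TTCC beside other letters also occurs in the windows and was neither marked nor counted.
Eng: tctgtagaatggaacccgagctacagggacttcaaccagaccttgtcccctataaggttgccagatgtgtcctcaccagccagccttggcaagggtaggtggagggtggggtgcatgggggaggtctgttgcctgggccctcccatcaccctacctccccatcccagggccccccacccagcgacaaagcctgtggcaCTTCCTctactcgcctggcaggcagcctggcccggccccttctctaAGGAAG
Cd34: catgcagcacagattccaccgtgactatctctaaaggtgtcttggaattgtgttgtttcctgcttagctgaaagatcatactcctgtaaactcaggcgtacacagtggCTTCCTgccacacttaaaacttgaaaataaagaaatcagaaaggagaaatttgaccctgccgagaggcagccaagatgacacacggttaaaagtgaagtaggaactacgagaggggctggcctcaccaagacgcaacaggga
Flt1: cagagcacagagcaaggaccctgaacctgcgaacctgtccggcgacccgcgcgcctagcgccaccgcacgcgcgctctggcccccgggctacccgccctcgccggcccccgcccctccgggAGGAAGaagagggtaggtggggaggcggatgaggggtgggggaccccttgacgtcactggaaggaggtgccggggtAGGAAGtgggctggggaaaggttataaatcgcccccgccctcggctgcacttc

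AGGAAG or CTTCCT was found 2 times in the Eng window, 1 time in the Cd34 window and 2 times in the Flt1 window. The Eng matches began 52 and 6 bases before the start, the Cd34 match 142 bases before it, and the Flt1 matches 129 and 53 bases before it. The same letters were present in 29.5% of 32851 windows of this length in the table, so a match in a window is common. The letters AGATAA or TTATCT, a form of the GATA site, were present in 9.99% of windows and in none of the 3. Other forms of the GATA site were not searched, so its absence is not shown. An SP1 box (GGGCGG or CCGCCC, 32.7% of windows) was found 3 times before Flt1, and a TATA box (TATAAA or TTTATA, 12.4% of windows) 1 time, 31 bases before the Flt1 start. No match of one motif overlapped a match of another. The letters searched were settled after the windows had been seen, and a match describes the sequence only.

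Levels of Eng, Cd34 and Flt1 were lower in all 3 TNE arrays than in any TPIN array, and those of Cdh5 were higher in all 3. The 2 groups thus did not overlap for any of the 4 genes. Over all 9490 genes the groups did not overlap for 43.8%, with 20.5% lower in TNE and 23.3% higher. Because the genes were taken for these directions, nothing is read from that count. Levels are log2 values after RMA, given as mean ± SD, and differences are TNE minus TPIN on the same log2 scale. Replicate numbers only name the arrays within a group, and the same number does not link a TPIN array with a TNE array.

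**Figure D1:**
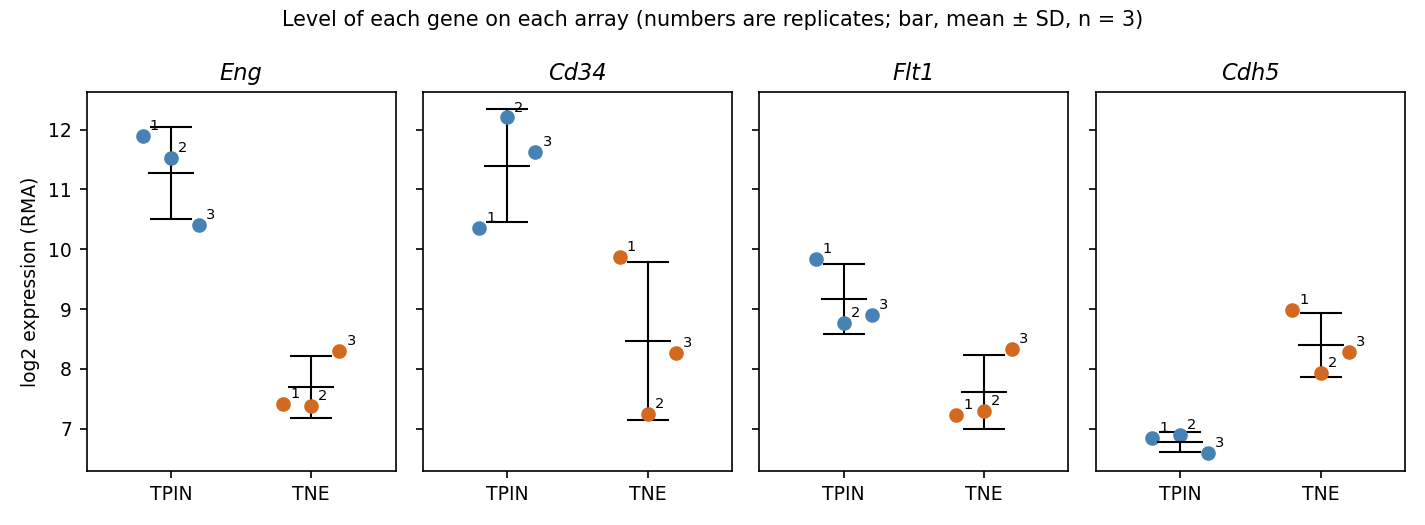
The log2 level of Eng, Cd34, Flt1 and Cdh5 on each array (points, numbered by replicate), with the mean and SD of each group of 3 arrays as bars. The TPIN points lie above the TNE points for the first 3 genes and below them for Cdh5, and the gap is narrowest for Flt1 and Cd34; the level of one gene is not comparable with that of another.

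Eng was at 11.89, 11.53 and 10.41 on the 3 TPIN arrays and at 7.42, 7.38 and 8.30 on the 3 TNE arrays. The groups stood far apart, with 2.11 between the lowest TPIN array and the highest TNE array. The mean was 11.27 ± 0.77 in TPIN and 7.70 ± 0.52 in TNE (SD, n = 3 each), a log2 difference of -3.57, or 11.9-fold lower in TNE. Differences as large or larger in this direction were found for 125 genes, Eng included, 1.32% of those in the table. On TNE replicates 1 and 2 Eng lay below the 20th percentile of the array, and on TNE replicate 3 it lay above it. Leaving out each array in turn gave log2 differences between -4.01, without TPIN replicate 3, and -3.27, without TPIN replicate 1.

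Cd34 was at 10.36, 12.20 and 11.63 in TPIN and at 9.87, 7.25 and 8.27 in TNE. TNE replicate 2 lay below the 20th percentile of its array. The groups came within 0.48 of each other, because TPIN replicate 1 was the lowest of its group and TNE replicate 1 the highest of its own. The mean was 11.40 ± 0.95 in TPIN and 8.46 ± 1.32 in TNE (SD, n = 3 each), a log2 difference of -2.93, or 7.64-fold lower in TNE. Cd34 had the widest spread of the 4 genes in both groups, and 3.87% of all genes had a larger SD in TNE. The log2 difference was -2.33 without TNE replicate 2 and -3.64 without TNE replicate 1, the extremes over the 6 arrays left out.

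Flt1 was at 9.83, 8.76 and 8.90 in TPIN and at 7.23, 7.30 and 8.33 in TNE. This was the smallest gap, 0.44 between TPIN replicate 2 and TNE replicate 3, against a range of 1.07 within TPIN and 1.10 within TNE. TNE replicates 1 and 2 lay below the 20th percentile of their arrays. The mean was 9.17 ± 0.58 in TPIN and 7.62 ± 0.61 in TNE (SD, n = 3 each), a log2 difference of -1.55, or 2.93-fold lower in TNE. A difference at least this large in the same direction was found for 9.35% of genes, so that of Flt1 was moderate. Leaving out single arrays moved it between -1.22 (TPIN replicate 1 left out) and -1.90 (TNE replicate 3 left out). The single row gives 1 value for the gene, so membrane-bound and secreted forms of FLT1 could not be told apart.

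Cdh5 took the opposite direction, at 6.84, 6.90 and 6.59 in TPIN and 8.98, 7.93 and 8.29 in TNE. All 3 TPIN values lay below the 20th percentile of their arrays, and no array placed Cdh5 above its median. The mean was 6.78 ± 0.17 in TPIN and 8.40 ± 0.53 in TNE (SD, n = 3 each), a log2 difference of 1.62, or 3.08-fold higher in TNE, with 1.03 between the groups. The TPIN values were close together, with 87.6% of all genes having a larger SD in that group. RMA narrows differences near background and no detection call comes with the table, so a low TPIN value is not evidence of absence. The mean of the row over the 6 arrays was in the lowest 20% of the table. Leaving out single arrays gave log2 differences between 1.33, without TNE replicate 1, and 1.86, without TNE replicate 2.

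**Figure D2:**
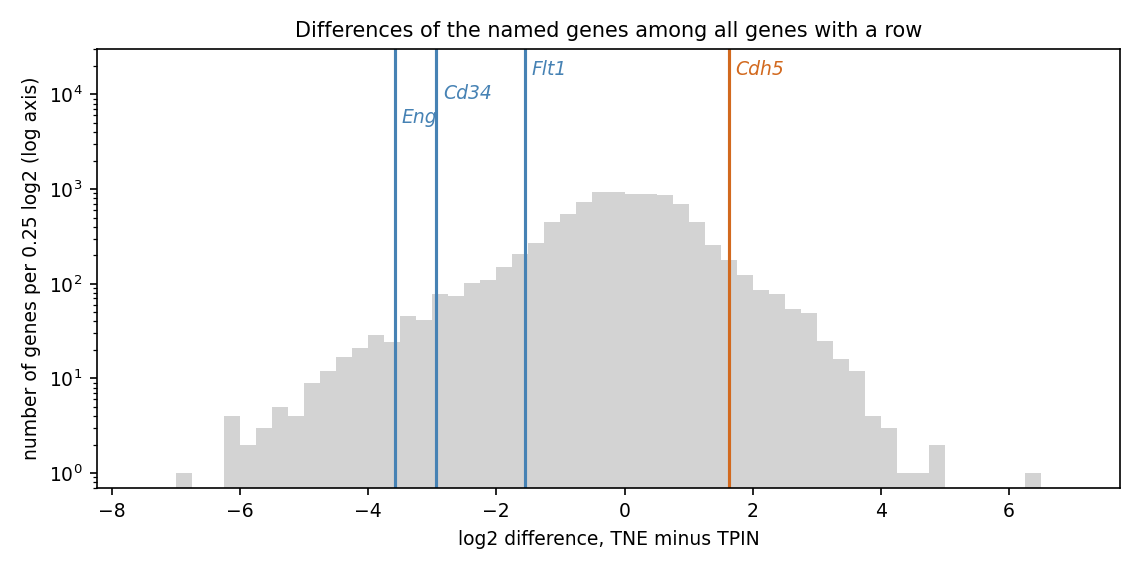
Number of genes (log axis) by log2 difference, TNE minus TPIN, over 9490 genes, in bins of 0.25, with vertical lines at Eng (-3.57), Cd34 (-2.93), Flt1 (-1.55) and Cdh5 (1.62). Eng and Cd34 lie in the lower tail, and Flt1 and Cdh5 lie nearer to the bulk of the genes.

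Within the groups the 4 genes did not share an order of arrays. In TNE, Eng and Flt1 were highest on replicate 3, whereas Cd34 and Cdh5, which differed in opposite directions between the groups, were both highest on replicate 1 and lowest on replicate 2. In TPIN, Eng and Flt1 were highest on replicate 1, where Cd34 was at its lowest. With 3 arrays a group these orders are descriptions of single arrays.

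Likeness of profile was measured as the root mean square difference over the 6 arrays after each gene's own mean was subtracted, so that a value of 0 means parallel profiles. Between members it was 1.08 for Eng and Flt1, 1.24 for Eng and Cd34, and 1.43 for Cd34 and Flt1. From Cdh5 it was 2.66 for Eng, 2.39 for Cd34 and 1.70 for Flt1. The measure includes the group difference for which the members were chosen, so nothing is read from the distances to Cdh5. Many other genes lay nearer to each member than the other members did. Nearest to Eng were Enpp3 (0.16), the guidance cue Slit3 (0.23), Apbb1ip (0.24) and Ltbp2, a latent TGF-beta binding protein (0.26). Nearest to Cd34 were Sp100 (0.29), Trim12a (0.37), Lgals3bp (0.44) and Zfp57 (0.51), at larger distances than for the other 3 genes. For Flt1 the nearest were Gramd1b (0.24), phospholipase Pld1 (0.25), the BMP antagonist Nbl1 (0.26) and Vsir (0.26). For Cdh5 they were Tubgcp3, of the gamma-tubulin complex (0.18), Depdc7 (0.19), the kinase Nek3 (0.20) and Elmo1 (0.22). Enpp3, the nearest gene to any of the 4, was at 9.73, 9.60 and 8.74 in TPIN and 5.67, 5.55 and 6.43 in TNE, with TPIN replicate 3 low and TNE replicate 3 high, as for Eng.

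Other genes of the pathways in which the 4 act were taken from lists that hold none of the 4, and were tested with limma over all 9490 genes with Benjamini-Hochberg adjustment at 0.05. Over all genes 20.5% passed, 10.2% lower and 10.3% higher in TNE, with a median log2 difference of -0.02. The 6 pathway lists hold 107 distinct measured genes, of which 25 fell (23.4%), 2 rose (1.87%) and 80 did not pass, with a median log2 difference of -0.66. The total over all genes, 1941, dropped to 936 when TPIN replicate 1 was left out, to 1115 when TPIN replicate 2 was, and to 832 when TNE replicate 2 was.

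Of 24 measured genes of TGF-beta and BMP signalling, the pathway of endoglin, 7 fell in TNE, none rose and 17 did not pass, with a median log2 difference of -0.52. Tgfbr3 (betaglycan), the co-receptor most closely related to endoglin, fell from 11.33 ± 0.45 in TPIN to 8.47 ± 0.84 in TNE (limma adjusted p = 0.00635). Tgfbr2, the type II TGF-beta receptor, was at 11.55, 10.59 and 10.91 in TPIN and 9.59, 8.18 and 8.74 in TNE and fell 4.53-fold (limma adjusted p = 0.0128). Mmp14, a membrane protease that can release endoglin from the cell surface, fell 11.1-fold (limma adjusted p = 0.00309). The activin subunit gene Inhba fell 38.6-fold (limma adjusted p = 0.00113). The activin-like receptor Acvrl1, which signals with endoglin in endothelial cells, had 8.55 ± 0.40 in TPIN against 7.88 ± 0.21 in TNE and did not pass (limma adjusted p = 0.142). The count of 7 was 4 when replicate 1 or 2 of TPIN, or replicate 2 or 3 of TNE, was left out, and 14 with array quality weights.

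Of 15 measured VEGF pathway genes 4 fell and 11 did not pass, with no rise, with a median log2 difference of -0.79. The ligand genes Vegfd and Vegfc, whose products act on VEGF receptors other than FLT1, fell 17.3-fold and 5.63-fold (limma adjusted p = 0.000378 and 0.00889). Vegfd was at 11.46, 10.94 and 11.19 in TPIN and 7.28, 6.74 and 7.24 in TNE, a gap wider than that of any of the 4 vessel-associated genes. The co-receptor Nrp2 fell 4.29-fold (limma adjusted p = 0.0294) and Arnt, a partner of hypoxia-inducible factors, 2.24-fold (limma adjusted p = 0.0464). Pgf, which encodes a ligand of FLT1, had 7.54 ± 0.54 in TPIN against 7.15 ± 0.04 in TNE and did not pass (limma adjusted p = 0.406). Vegfb, another ligand of FLT1 (picked with its values already seen), had 9.85 ± 0.23 in TPIN against 9.41 ± 0.38 in TNE (limma adjusted p = 0.314). The co-receptor Nrp1 did not pass either, at 10.10, 8.74 and 10.37 in TPIN and 8.97, 7.39 and 10.47 in TNE. Vegfa and Kdr, the main VEGF ligand and its signalling receptor, have no row of their own and are not analysed here. The count of 4 was 2 when replicate 1 or 2 of TPIN, or replicate 2 or 3 of TNE, was left out, and 9 with array quality weights. Vegfd and Vegfc kept their calls without any single array, Nrp2 lost its call without each of those 4 arrays, and Arnt without those and TNE replicate 1.

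Of 9 measured relatives and partners of CD34, 1 rose, none fell and 8 did not pass, with a median log2 difference of -0.38. The gene that rose was Podxl, which encodes podocalyxin, a sialomucin of the CD34 family. Podxl was at 6.62, 6.47 and 6.82 in TPIN and 8.61, 7.53 and 7.80 in TNE, so its groups did not overlap and its direction was opposite to that of Cd34. Its log2 difference was 1.34 (SE 0.34, limma adjusted p = 0.0315), a call that ended when any array other than TPIN replicate 3 was left out. The row of Podxl, like that of Cdh5, is among the dim rows (lowest 20% by mean). The profile of Podxl lay at a root mean square difference of 0.25 from that of Cdh5, the 10th smallest of all genes. This pair was picked outside the rule for nearest profiles. The adaptor gene Crkl has no row of its own and is not analysed here.

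Of 15 measured genes of the adherens junction, in which VE-cadherin acts, 1 rose, 1 fell and 13 did not pass, with a median log2 difference of 0.02. Cdh11, a cadherin of mesenchymal cells, fell from 12.66 ± 0.43 in TPIN to 9.40 ± 0.82 in TNE (limma adjusted p = 0.00382), the direction opposite to that of Cdh5. Afdn, which encodes the junction scaffold afadin, rose 2.35-fold (limma adjusted p = 0.0335). Ctnnd1 encodes p120-catenin, which holds VE-cadherin at the surface, and did not pass, with 10.80 ± 0.46 in TPIN against 10.20 ± 0.31 in TNE (limma adjusted p = 0.211). The call of Afdn ended without any array other than TPIN replicate 3, which left a count of 1 when replicate 1 or 2 of TPIN, or replicate 2 or 3 of TNE, was left out.

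**Figure D3:**
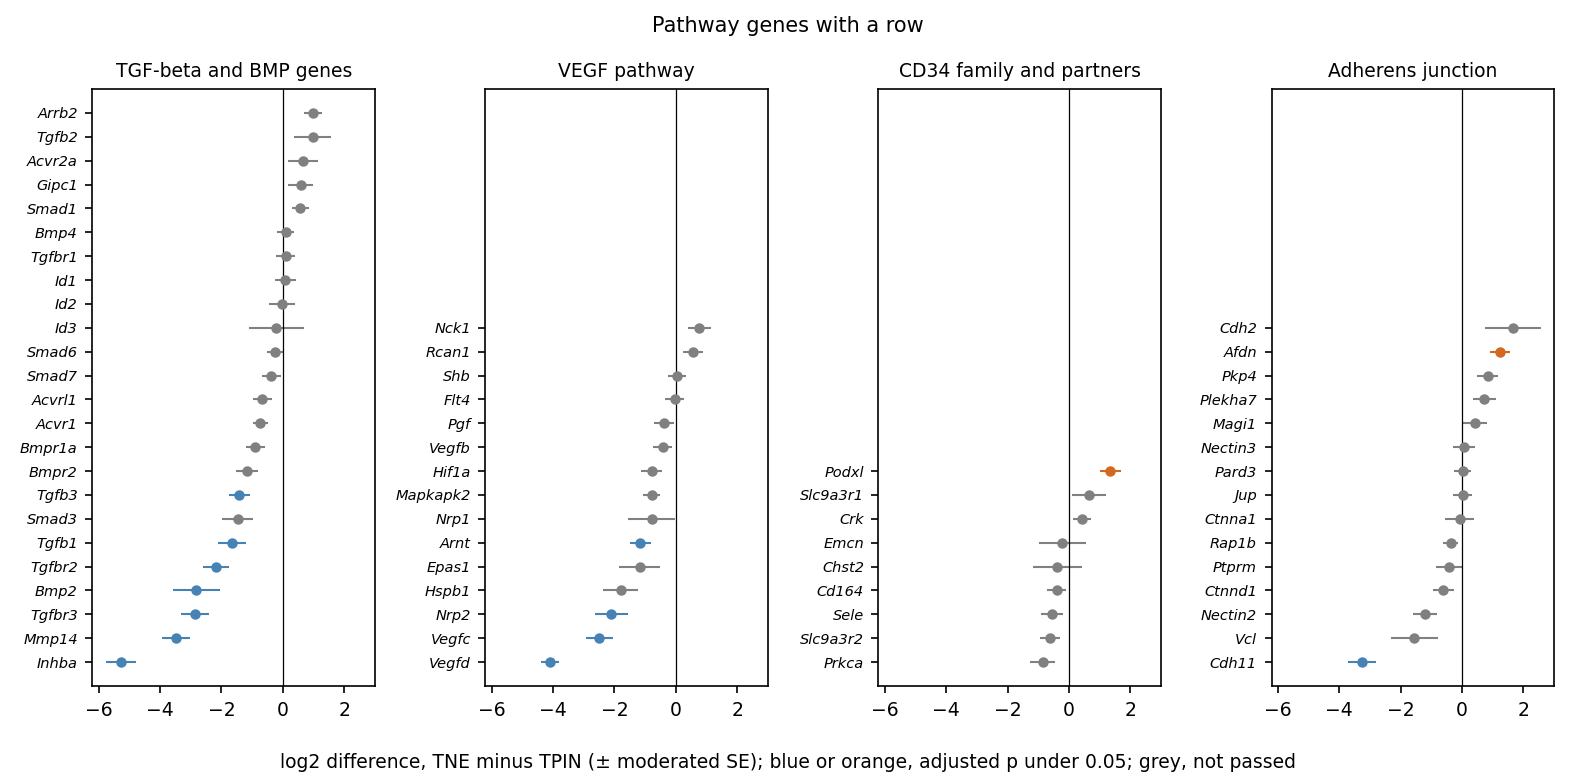
Log2 difference, TNE minus TPIN, with moderated standard error (bars), for the measured genes of 4 pathway lists; blue points fell and orange points rose at an adjusted p under 0.05, and grey points did not pass. Most called genes fell, and Podxl and Afdn are the 2 that rose.

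Of 25 measured genes of other vessel receptors, their ligands and coagulation receptors, 10 fell, none rose and 15 did not pass, with a median log2 difference of -1.64. Calcrl, the receptor of adrenomedullin and CGRP, was at 11.37, 11.33 and 9.99 in TPIN and 5.77, 6.12 and 7.34 in TNE and fell 22.4-fold (limma adjusted p = 0.00222). As for Eng, its lowest TPIN value was on TPIN replicate 3 and its highest TNE value on TNE replicate 3. The integrin chains Itga5 and Itgb3 fell 9.26-fold and 5.06-fold (limma adjusted p = 0.00214 and 0.00249), and Thbs1, the angiogenesis inhibitor thrombospondin, fell 14.1-fold (limma adjusted p = 0.00112). These 4 genes kept their calls without any single array.

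Of 19 measured transcription factors known from endothelial cells 3 fell, none rose and 16 did not pass, with a median log2 difference of -0.72. The share called was 15.8%, beside 20.5% of all genes called in either direction and 10.2% called lower in TNE. The 3 that fell were Gata2 (2.57-fold, limma adjusted p = 0.0103), the forkhead factor Foxc2 (3.11-fold, limma adjusted p = 0.0110) and Elf1, of the ETS family (2.23-fold, limma adjusted p = 0.0369). Gata2 was at 10.12, 10.01 and 9.89 in TPIN and 8.47, 8.75 and 8.71 in TNE, with little spread in either group. Foxc2 lost its call without TNE replicate 2, and Elf1 when replicate 1 or 2 of TPIN, or replicate 2 or 3 of TNE, was left out. The count was 1 without TNE replicate 2, 5 without TNE replicate 1 and 8 with array quality weights.

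The label of vessel-associated genes could be checked on few other endothelial markers. Of 30 listed markers 6 had a row, and 1 of these, Ecscr, an endothelial surface protein, fell 3.99-fold (limma adjusted p = 0.00323), while 5 did not pass. The share called was 16.7%, beside 20.5% of all genes called in either direction and 10.2% called lower in TNE. Of 8 defining genes, only Tek and Emcn had a row; Pecam1, Kdr, Tie1, Vwf, Erg and Cldn5 are not analysed here. Tek, the angiopoietin receptor, was at 7.65, 6.48 and 8.02 in TPIN and 6.59, 6.35 and 7.19 in TNE (limma adjusted p = 0.293). Emcn, endomucin, was at 5.62, 7.31 and 5.21 in TPIN and 4.95, 5.12 and 7.43 in TNE (limma adjusted p = 0.855). Both overlapped between the groups. The mean level of the 6 markers was 7.64 to 8.00 on the TPIN arrays and 6.80 to 7.70 on the TNE arrays, and no value in the table was 0 (the lowest was 2.87). The data therefore do not show whether the cultures held endothelial cells.

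Mean levels of the stromal marker lists were lower in TNE, as were those of Eng, Cd34 and Flt1. Of 11 measured mural cell markers 5 fell, none rose and 6 did not pass (8 passed without TPIN replicate 3). Of the 6, Rgs5 and Mcam had positive log2 differences of 0.68 and 0.70. Those of Cnn1, Cspg4, Des and Notch3 were -1.61, -1.29, -0.88 and -0.69. The mean level of the mural list was 9.26 to 9.44 on the TPIN arrays and 7.33 to 7.89 on the TNE arrays. Of 14 measured fibroblast markers 8 fell, none rose and 6 did not pass, with a mean level of 10.39 to 10.89 in TPIN and 7.34 to 8.56 in TNE. Of 7 measured neuroendocrine markers 4 rose, none fell and 3 did not pass. The mean level of that list, like that of Cdh5, was higher in TNE (7.75 to 8.26 in TPIN and 8.98 to 10.40 in TNE). The 3 that did not pass had log2 differences of -0.79 (Eno2), 0.04 (Ncam1) and 0.91 (Stmn2). The count of 4 was 2 without TPIN replicate 1 or TPIN replicate 3 and 1 without TPIN replicate 2. The 3 measured leukocyte markers did not pass (mean level 7.14 to 7.75 in TPIN and 6.72 to 8.65 in TNE), nor did the 2 measured epithelial markers (8.06 to 8.14 and 7.47 to 7.70), and Ptprc is not analysed here. The part of these cell types in the differences of the 4 genes was not tested.

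**Figure D4:**
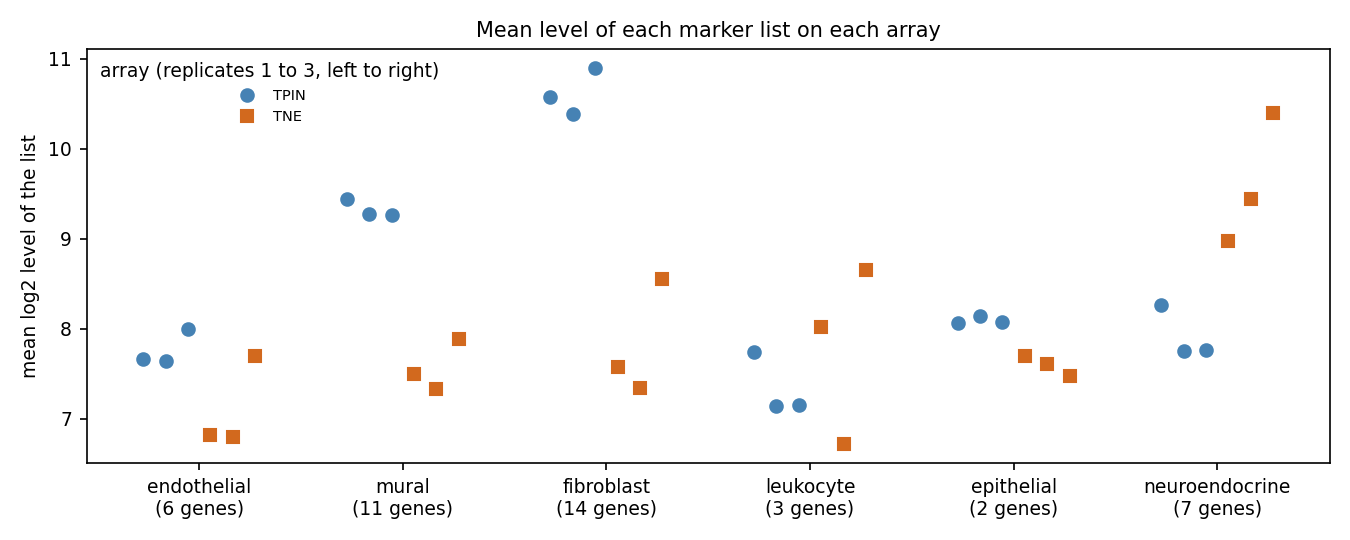
Mean log2 level of 6 marker lists on each array (circles TPIN, squares TNE, replicates 1 to 3 from left to right), with the number of measured genes under each list. The mural, fibroblast and epithelial lists were lower on every TNE array than on any TPIN array, the neuroendocrine list was higher on every TNE array, and the endothelial and leukocyte lists overlapped between the groups.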

How the data were processed

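RNA of 6 cultured samples (3 TPIN, 3 TNE) was measured on arrays. The deposited values are log2 expression after RMA by the authors, according to the submitters' processing notes. The RMA version, the genome build and the rule behind the selection of the 10361 rows are not stated in the labels used here. Of these rows 9496 carry 1 gene symbol, 374 several and 491 none, and for 6 genes with more than 1 row the row of highest mean was kept. Array medians lay between 8.82 and 9.10, and precision is limited by how few arrays there were.

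The TNE and TPIN arrays were set against each other with limma 3.58.1 (R 4.3.3) over all 9490 genes (a mean per group, empirical Bayes, two-sided, Benjamini-Hochberg adjustment, threshold 0.05). The procedure was tested on 20 simulated tables with independent noise and 200 genes raised in TNE. That setting is simpler than these arrays, where many genes differed in both directions. The 4 genes, the 12 gene lists and the rule for named genes were chosen with earlier results of these data known. The rule took, beside the 4 genes, up to 4 called genes per list and direction with the smallest p, defining endothelial and leukocyte genes, stated partners, and the 4 nearest profiles per gene. Genes of marker lists other than the endothelial one are given as counts. Outside the rule, log2 differences are added for the mural and neuroendocrine markers that did not pass. P-values reflect only how far these samples differ among themselves, and that spread may be technical. Alternatives were a filter on dim rows (lowest 20% by mean), normalization, moderation, array quality weights, row selection and leaving out each array.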

Additional observations from a re-analysis of the deposited data

How the results depend on the processing

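The 4 genes kept their directions under every alternative run for them: quantile normalization again, median centring, array quality weights and leaving out each array. Their groups did not overlap, so array quality weights or leaving out an array could not have reversed a direction. Nothing is read from the kept directions, for which the genes were chosen. With single arrays left out the log2 difference was -4.01 to -3.27 for Eng, -3.64 to -2.33 for Cd34, -1.90 to -1.22 for Flt1 and 1.33 to 1.86 for Cdh5. With array quality weights it was -4.04, -3.62, -1.75 and 1.34.

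With array quality weights 4267 genes passed, 2246 higher and 2021 lower in TNE, and the counts were 9 for VEGF, 14 for TGF-beta and BMP genes, 8 for endothelial transcription factors and 1 for epithelial markers. With dim rows left out the CD34 partner count was 0. Without single arrays the ranges were 832 to 2596 for all genes, 357 to 1311 higher and 475 to 1285 lower in TNE. For the lists they were 2 to 6 (VEGF), 4 to 8 (TGF-beta and BMP), 0 to 1 (CD34 partners), 1 to 3 (adherens junction), 7 to 10 (other vessel receptors), 1 to 5 (endothelial transcription factors), 4 to 8 (mural), 7 to 9 (fibroblast), 1 to 4 (neuroendocrine), 1 to 1 (endothelial) and 0 to 0 (leukocyte and epithelial). The cause of these shifts was not tested. No paired analysis was possible because the labels give no replicate numbers that the groups share. No detection call comes with the values, which limits what low levels such as those of Cdh5 in TPIN can show.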
